A study of Mus musculus with 12 samples.

Results

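The genes described here are those of glucose breakdown and of the transcriptional response to low oxygen, taken from a list of 43 symbols that was read across *Bmi1*-CPC at rest, *Bmi1*-CPC after acute myocardial infarction (AMI) and a *Sca-1* reference population. A gene was a member if its symbol stood in both deposited tables, and no measured value entered the choice. Of the 43 symbols, 39 were found among the 12528 genes of the tables. *Slc2a4*, *Hk3*, *Aldoc* and *Pkm* were not among the rows, the last because pyruvate kinase is listed under its older symbol *Pkm2*. All cells came from hearts of adult C57BL/6 mice, males and females, double heterozygous for *Bmi1*CreER/+ and *Rosa26*YFP/+ (*Bmi1*-YFP). These mice, controls included, had received 3 injections of tamoxifen (TM), each dosed at 9 mg for a mouse of 40 g. The methods and the results of the study give different ages for the mice. YFP marks cells in which the CreER of the *Bmi1* allele was active at induction, together with their descendants, so it is not a readout of *Bmi1* expression at harvest. *Bmi1*-CPC are YFP+ cells sorted 5 days after TM, and *Sca-1*-YFP- cells, the reference cells, are SCA-1+, YFP-negative and CD45-depleted cells of the same kind of heart. AMI *Bmi1*-CPC are YFP+ cells from mice infarcted 5 days after TM and killed 5 days later. There were 4 libraries per group, each of pooled mice (6 per pool in both homeostatic groups, 2 to 3 per pool after AMI). None of the groups is described as sham-operated. Between AMI and homeostatic *Bmi1*-CPC, infarction, surgery, time since TM and pool size cannot be told apart. The titles of the *Bmi1*-CPC samples name SCA-1 as well as YFP, whereas the sort is described on YFP alone.

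Glycolysis takes up glucose through transporters of the plasma membrane, traps it by phosphorylation and splits it to pyruvate, which is either reduced to lactate and exported or oxidized in mitochondria. Cells at low oxygen stabilize the alpha subunits of the hypoxia-inducible factor (HIF), which are otherwise marked by prolyl hydroxylases (the *Egln* genes) and removed through the ubiquitin ligase subunit *Vhl*. The alpha subunits pair with *Arnt* and bind a short DNA core, with ACGTG among its forms, near many glycolytic genes. HIF is governed largely through the stability of its protein, which RNA does not show. After coronary occlusion the infarcted wall is poorly perfused and fills with leukocytes and then fibroblasts.

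Reads per library numbered 3397621 to 8078721, and *mt-Rnr2*, a ribosomal RNA of mitochondria, held 10.4% to 33.4% of them. Values are the authors' normalized signal, a whole number of reads scaled by 1 factor per library, with 1 read worth 0.105 to 0.296. Groups were compared with limma on log2(value + 1) over all genes, two-sided, with a Benjamini-Hochberg adjusted p under 0.05 as the threshold for a call. Fold changes are on that scale, which understates those of low genes. Cell type markers differed between the groups. Leukocyte and macrophage markers (8 of 8 higher in *Bmi1*-CPC than in the reference cells, 8 of 8 higher again after AMI) summed to 150 to 270 in *Bmi1*-CPC, 4.18 to 6.11 in *Sca-1*-YFP- cells, where 6 of the 8 had no read in at least 1 library, and 791 to 1437 after AMI. *Ptprc*, which encodes CD45, had values of 14.7 to 22.5, 0.813 to 2.12 and 64.0 to 149 in that order. The study describes removal of CD45+ cells for the reference cells only, so the resting gap in leukocyte markers cannot be told apart from that sort step. *Ly6a*, which encodes SCA-1, was present in all 3 groups (790 to 836, 508 to 782 and 468 to 727). Endothelial markers (8 of 8 higher, then 6 of 8 lower) summed to 5018 to 6830, 1400 to 2840 and 3200 to 4775 in the same order. Cardiomyocyte markers (8 of 8 higher, then 8 of 8 lower) summed to 553 to 861, 55.4 to 138 and 216 to 306. Fibroblast markers (7 of 7 lower, then 4 of 7 higher and 1 lower) summed to 2746 to 5188, 13586 to 16771 and 10651 to 17250. Pericyte and smooth muscle markers (5 of 6 higher and 1 lower, then 1 higher and 2 lower) summed to 1544 to 2467, 411 to 763 and 1584 to 1977. Red cell markers (3 of 3 present higher, then 2 of 3 lower) summed to 65.9 to 109, 8.69 to 21.5 and 37.9 to 52.3. Genes of cycling cells (5 of 6 higher, then 6 of 6 higher) summed to 121 to 138, 40.0 to 68.6 and 326 to 592. In such pools, fewer cells of a type and less RNA per cell cannot be told apart, and the part of these markers in the results below was not tested.

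Between the resting populations, *Bmi1*-CPC had higher RNA of *Epas1*, *Egln1*, *Ndrg1*, *Eno3* and both lactate dehydrogenase genes than the reference cells, and lower RNA of *Hk2*, *Pgam1* and *Arnt*. All 39 members passed the filter on low values in both comparisons. Of these, 10 were higher and 3 lower in *Bmi1*-CPC (33.3% of members), where 34.4% of the 12450 genes tested were called in either direction (16.8% higher, 17.6% lower). The share of members called was near that of all genes in this fit, and with the replicate number as a block it was 43.6% against 37.5% of all genes. The median log2 fold change was 0.15 over members and 0.0037 over all tested genes. With an edgeR test on library totals in place of limma, 6 members were higher and 5 lower, against 1327 and 3386 of all genes. The medians moved to −0.09 for members and −0.25 for all genes. This setting, named library totals below, changed the test as well as the scaling.

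Members moved in both directions after AMI. *Hif1a*, *Hk2*, *Slc2a1*, *Pgk1*, *Pgam1* and the lactate transporter gene *Slc16a1* rose, whereas *Epas1*, *Eno3*, *Ldhb*, *Egln1*, *Egln2* and the phosphofructokinase genes *Pfkl* and *Pfkm* fell. In all, 9 members rose and 13 fell after AMI relative to homeostatic *Bmi1*-CPC (56.4% of members), where 43.4% of 12486 genes were called (21.4% higher, 22.0% lower). The medians were 0.0075 over members and −0.02 over all genes. The shares over all genes given here and for the resting groups also apply to the counts by role below. The libraries of the groups compared did not overlap for 12 of 39 members in homeostasis (33.7% of all genes) and for 21 of 39 after AMI (40.6% of all genes). The comparisons share the 4 *Bmi1*-CPC libraries, so a value that is high there by chance lowers the AMI change as it raises the homeostatic difference. *Hk2*, *Pfkl*, *Pgam1*, *Eno3*, *Ldhb*, *Epas1*, *Arnt* and *Egln1* were called in both comparisons.

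**Figure D1:**
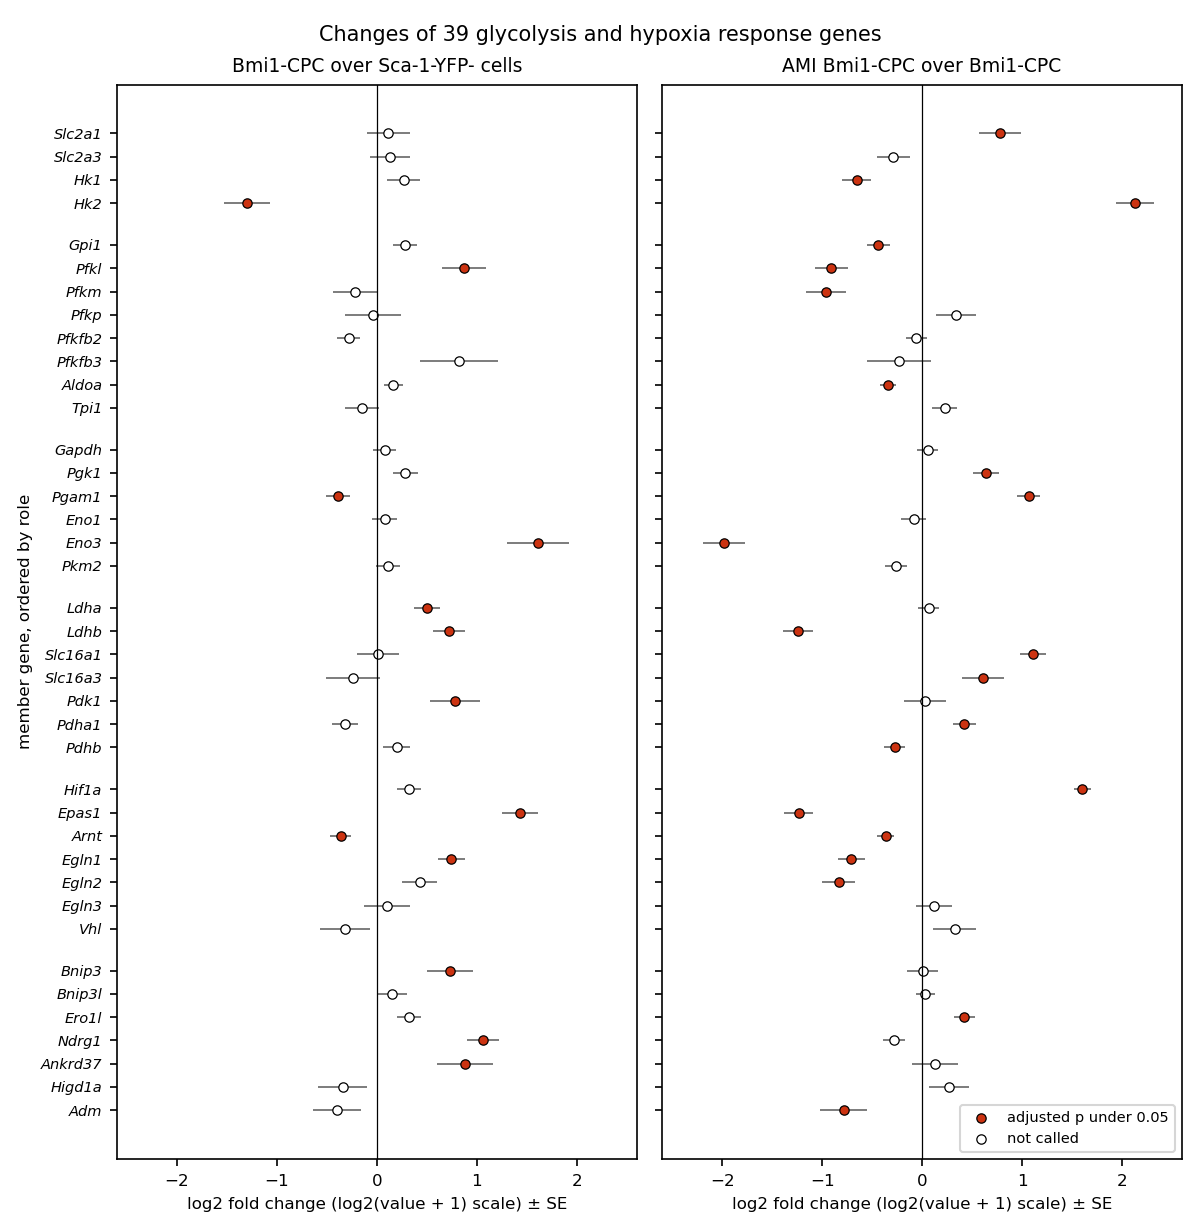
Log2 fold changes with standard errors of the 39 members, ordered by role, for *Bmi1*-CPC over *Sca-1*-YFP- cells (left) and AMI *Bmi1*-CPC over *Bmi1*-CPC (right), on the log2(value + 1) scale, with 4 libraries per group. Filled points passed an adjusted p of 0.05, 13 on the left and 22 on the right. *Hk2* lies at −1.30 and 2.13, and *Eno3* at 1.61 and −1.98.

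ACGTG, a form of the HIF core, was looked for in the promoters as a description. Other forms of the core were not searched. RefSeq promoter windows (build GRCm38.p6, 250 bases before to 50 after each start) were at hand for 35 of the 39 members, not for *Slc2a3*, *Epas1*, *Bnip3l* or *Ndrg1*. ACGTG on either strand, the palindrome CACGTG counting once per strand, stood in at least 1 window of 23 of these 35 (65.7%) and of 21.8% of the 27025 genes of that table. The members were listed for glycolysis and the hypoxia response, so the choice of list favours a higher share. The 27025 genes were not limited to those measured here. ACGTG stood in 8 of the 9 members that rose after AMI, 6 of 12 that fell and 9 of 14 that were not called. Stretches of 120 bases are shown for members on which the results below turn, with every match in capitals, read 5′ to 3′ on the strand of the gene.
*Hk2* (chr6:82774455-82774574, minus strand): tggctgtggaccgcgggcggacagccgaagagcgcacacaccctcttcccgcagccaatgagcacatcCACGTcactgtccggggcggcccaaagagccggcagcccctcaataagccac
*Pgk1* (chrX:106186948-106187067, plus strand): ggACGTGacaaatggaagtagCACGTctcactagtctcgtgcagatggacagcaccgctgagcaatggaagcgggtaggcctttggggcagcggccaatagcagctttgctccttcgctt
*Pgam1* (chr19:41911751-41911870, plus strand): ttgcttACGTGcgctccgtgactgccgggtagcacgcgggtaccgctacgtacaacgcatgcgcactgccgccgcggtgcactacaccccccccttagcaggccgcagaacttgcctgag
*Slc16a1* (chr3:104638462-104638581, plus strand): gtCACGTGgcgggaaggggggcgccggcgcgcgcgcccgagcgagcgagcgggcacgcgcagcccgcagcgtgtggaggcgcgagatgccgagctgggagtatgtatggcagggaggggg
*Hif1a* (chr12:73907730-73907849, plus strand): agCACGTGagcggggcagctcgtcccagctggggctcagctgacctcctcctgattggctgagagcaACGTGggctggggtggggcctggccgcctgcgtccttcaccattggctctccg
*Ldha* (chr7:46845657-46845776, plus strand): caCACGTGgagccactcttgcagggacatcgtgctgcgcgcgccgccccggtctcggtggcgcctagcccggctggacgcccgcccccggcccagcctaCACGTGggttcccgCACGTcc
*Eno3* (chr11:70657056-70657175, plus strand): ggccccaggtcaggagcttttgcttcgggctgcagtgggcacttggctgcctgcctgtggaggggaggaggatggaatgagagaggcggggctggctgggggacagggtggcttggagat
*Ldhb* (chr6:142507958-142508077, minus strand): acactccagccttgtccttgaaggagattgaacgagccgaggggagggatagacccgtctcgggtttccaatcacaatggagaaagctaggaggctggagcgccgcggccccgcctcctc
*Hk2*, *Pgk1*, *Pgam1*, *Slc16a1* and *Hif1a* rose after AMI and hold matches here. *Eno3* and *Ldhb* fell and hold none in their windows, and *Ldha*, with 5 matches, was not called after AMI. The stretches shown do not stand for all members. The 6 that fell and hold a match, none of them shown, were *Hk1*, *Pfkm*, *Aldoa*, *Pdhb*, *Egln1* and *Egln2*. *Pdha1* rose and holds none. A match is a description of letters. Binding was not measured, and a part of HIF in the changes was not tested.

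Among the HIF subunits, the alpha genes moved in opposite directions after AMI. *Hif1a*, the widely expressed alpha subunit, had values of 84.2, 90.3, 91.5 and 96.7 in *Bmi1*-CPC, 67.9, 86.6, 73.3 and 63.3 in the reference cells, and 266, 295, 281 and 268 after AMI. All AMI libraries lay far above all others, while 1 *Sca-1*-YFP- library reached into the range of *Bmi1*-CPC. *Hif1a* rose after AMI by a log2 fold change of 1.60 ± 0.083 (SE, adjusted p = 2.33e-07), which is 3.04-fold. Its resting difference of 0.32 ± 0.12 missed the threshold (adjusted p = 0.0502) and passed it with the replicate number as a block (adjusted p = 0.0406), whereas with library totals it was 0.07 (adjusted p = 0.727). The antisense gene *Gm15283* matches *Hif1a* over 194 bases, and reads of both strands count together in these libraries.

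*Epas1*, the alpha subunit prominent in endothelial cells, had 1554, 1854, 1684 and 1484 in *Bmi1*-CPC, 531, 905, 526 and 535 in the reference cells, and 639, 573, 710 and 900 after AMI. The *Bmi1*-CPC libraries stood above both other groups, whose ranges overlapped each other. Resting *Bmi1*-CPC exceeded the reference cells in *Epas1* (log2 fold change 1.43 ± 0.18, adjusted p = 5.96e-05) and fell after AMI (−1.23 ± 0.14, adjusted p = 5.33e-05). Endothelial markers moved in the same direction between groups. After AMI their log2 fold changes ran from −1.36 (*Tie1*) and −1.05 (*Eng*) to −0.31 (*Emcn*), with a median of −0.57 and 6 of 8 called lower. Their sums after AMI (3200 to 4775) stayed above those of *Sca-1*-YFP- cells (1400 to 2840), and *Epas1* overlapped. Among single markers, *Tie1* (82.4 to 106 against 53.6 to 109), *Tek* and *Eng* (227 to 375 against 252 to 367) overlapped too. The other endothelial markers stayed above. Their part in the *Epas1* values was not tested. Within groups the markers moved with *Epas1* in part. The *Sca-1*-YFP- library with the highest *Epas1*, replicate 2, also had the highest summed endothelial markers of its group (2840, the others 1400 to 2135), and the AMI library with the highest *Epas1*, replicate 4, had the highest of its own (4775, the others 3200 to 3979). In *Bmi1*-CPC the library with the highest *Epas1*, replicate 2, had the second lowest sum (5454, the others 5018, 6830 and 6095). Without *Sca-1*-YFP- replicate 2 the resting difference was 1.62 (adjusted p = 2.1e-06). Per kilobase of the longest coding transcript, *Epas1* stood at 298 ± 29.5 (SD) against 19.2 ± 1.09 for *Hif1a* in *Bmi1*-CPC and at 128 ± 25.6 against 58.7 ± 2.83 after AMI.

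*Arnt*, the shared beta subunit, had 163, 155, 147 and 148 in *Bmi1*-CPC, 221, 204, 192 and 175 in the reference cells, and 123, 123, 112 and 118 after AMI. The groups did not overlap, in the order *Sca-1*-YFP-, *Bmi1*-CPC, AMI *Bmi1*-CPC from high to low. *Arnt* was lower in *Bmi1*-CPC than in the reference cells (−0.36 ± 0.10, adjusted p = 0.0159) and fell after AMI (−0.37 ± 0.081, adjusted p = 0.00354). The AMI change was not called with library totals (−0.26, adjusted p = 0.156), and the resting call was lost without *Bmi1*-CPC replicate 4 (adjusted p = 0.0511) or *Sca-1*-YFP- replicate 1 (adjusted p = 0.0565).

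*Egln1*, the main prolyl hydroxylase acting on HIF alpha, had 121, 166, 170 and 158 in *Bmi1*-CPC, 79.2, 109, 87.5 and 90.4 in the reference cells, and 93.5, 73.9, 104 and 105 after AMI. Every *Bmi1*-CPC library exceeded every library of the other groups. It was higher at rest (0.74 ± 0.14, adjusted p = 9.34e-04) and fell after AMI (−0.71 ± 0.14, adjusted p = 0.00146). *Egln2*, a further hydroxylase, was also called after AMI (adjusted p = 0.00149) and ranged from 8.89 to 12.3 in *Bmi1*-CPC, 6.13 to 8.42 in *Sca-1*-YFP- cells and 4.97 to 6.10 after AMI. *Egln3* and *Vhl* were low throughout and not called, with ranges over all libraries of 4.55 to 9.38 and 3.70 to 10.1. Of this role group of 7 genes, 2 were higher and 1 lower at rest, and 1 rose and 4 fell after AMI.

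**Figure D2:**
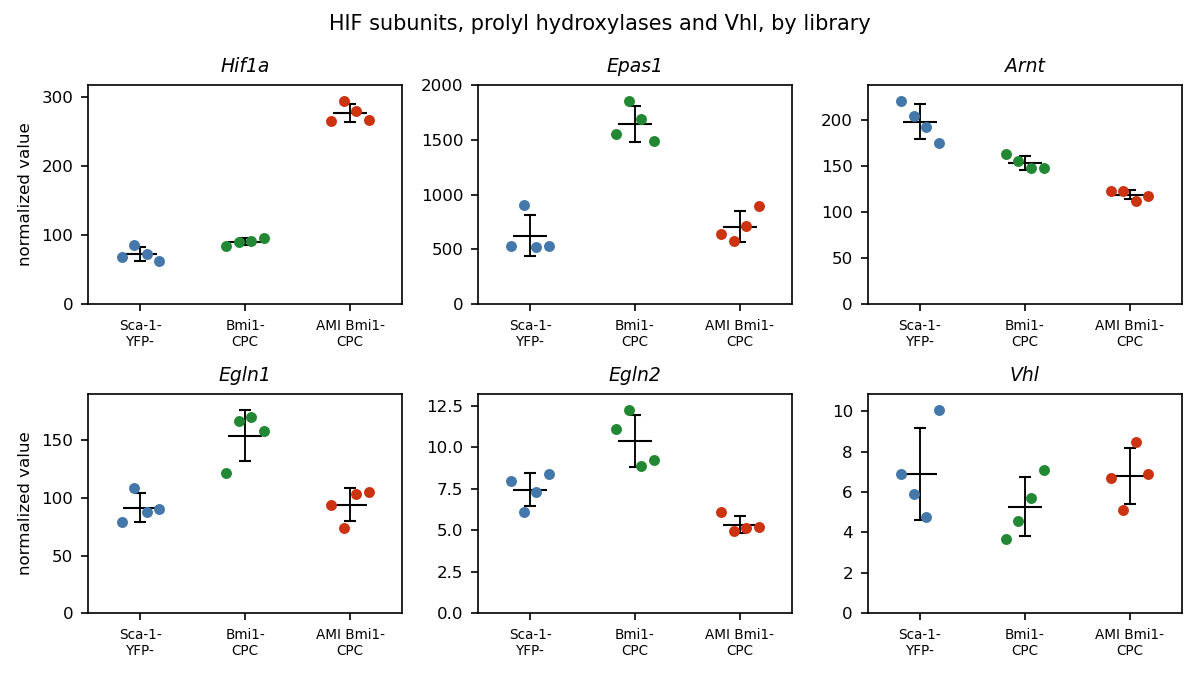
Normalized values (vertical axes, linear from 0) of *Hif1a*, *Epas1*, *Arnt*, *Egln1*, *Egln2* and *Vhl* in each library of the 3 groups (points) with the mean and SD of 4 libraries (bars). *Hif1a* lies between 266 and 295 after AMI and at or below 96.7 elsewhere, while *Epas1* and *Egln1* peak in homeostatic *Bmi1*-CPC.

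Among the genes of glucose entry and phosphorylation, RNA of *Hk2* and *Slc2a1* rose after AMI and that of *Hk1* fell. *Hk2*, the inducible hexokinase of muscle and growing cells, had 6.36, 8.64, 6.94 and 8.77 in *Bmi1*-CPC, 15.4, 17.05, 18.7 and 33.5 in the reference cells, and 34.9, 52.6, 36.3 and 27.3 after AMI. The *Bmi1*-CPC libraries were the lowest of all, and the AMI range overlapped that of *Sca-1*-YFP- cells only through replicate 4 of each. *Hk2* was lower in *Bmi1*-CPC than in the reference cells (−1.30 ± 0.23, adjusted p = 6.98e-04) and rose after AMI by 2.13 ± 0.19 (adjusted p = 9.41e-06), or 4.38-fold. *Hk1*, the ubiquitous hexokinase, had 29.7, 45.3, 44.2 and 41.2 in *Bmi1*-CPC, 37.6, 35.3, 26.1 and 33.2 in the reference cells, and 21.2, 25.1, 27.8 and 25.5 after AMI. The AMI libraries all lay below the *Bmi1*-CPC libraries, and *Hk1* fell (−0.66 ± 0.14, adjusted p = 0.00339), with no call at rest (0.27 ± 0.16, adjusted p = 0.238). Per kilobase, *Hk1* stood at 9.38 ± 1.67 (SD) and *Hk2* at 1.39 ± 0.219 in *Bmi1*-CPC, and at 5.82 ± 0.640 and 6.85 ± 1.93 after AMI.

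*Slc2a1*, the basal glucose transporter of many cell types, had 9.91, 22.5, 13.3 and 11.7 in *Bmi1*-CPC, 11.96, 13.3, 11.96 and 13.1 in the reference cells, and 25.5, 28.1, 21.7 and 21.8 after AMI. Replicate 2 of *Bmi1*-CPC reached the AMI range, and the other 3 libraries lay below it. *Slc2a1* rose after AMI (0.78 ± 0.21, adjusted p = 0.0108) and was not called at rest (0.11 ± 0.22, adjusted p = 0.740). *Slc2a3*, a transporter of high affinity, was called in neither comparison and ranged from 9.59 to 17.8 over all 12 libraries. Of the 4 genes of this role, 1 was lower at rest, and 2 rose and 1 fell after AMI.

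In upper glycolysis, none of the 8 genes rose after AMI and 4 fell. *Pfkl*, the liver type subunit of phosphofructokinase, which catalyses the committed step, had 17.01, 28.0, 25.5 and 20.1 in *Bmi1*-CPC, 12.3, 17.9, 9.41 and 8.97 in the reference cells, and 10.3, 11.7, 10.8 and 12.8 after AMI. All AMI libraries were below all *Bmi1*-CPC libraries, and *Sca-1*-YFP- replicate 2 exceeded *Bmi1*-CPC replicate 1. *Pfkl* was higher in *Bmi1*-CPC at rest (0.87 ± 0.22, adjusted p = 0.00870) and fell after AMI (−0.91 ± 0.16, adjusted p = 9.53e-04). *Pfkm*, the muscle type subunit, had 8.14, 12.9, 14.7 and 8.53 in *Bmi1*-CPC, 15.6, 12.1, 9.41 and 14.5 in the reference cells, and 5.05, 4.83, 5.11 and 5.18 after AMI. Its AMI libraries were the lowest of all and close to each other, and it fell (−0.96 ± 0.20, adjusted p = 0.00218), with no call at rest (−0.22 ± 0.22, adjusted p = 0.492). Cardiomyocyte markers were higher in resting *Bmi1*-CPC than in the reference cells, unlike *Pfkm*, and fell after AMI, as *Pfkm* did. *Pfkp*, the platelet type subunit, was not called and ranged from 30.4 to 77.95 over all libraries.

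*Aldoa*, the aldolase that splits the hexose bisphosphate, had 157, 147, 148 and 136 in *Bmi1*-CPC, 130, 129, 130 and 136 in the reference cells, and 112, 120, 119 and 112 after AMI. The AMI libraries lay below both other groups. It fell by a small amount (−0.34 ± 0.082, adjusted p = 0.00548), a change not called with library totals (−0.24, adjusted p = 0.227). *Gpi1*, glucose phosphate isomerase, also fell after AMI (75.98 to 88.1 against 92.1 to 132 in *Bmi1*-CPC), a call lost with library totals (adjusted p = 0.0802), and a pseudogene, *Gm1840*, matches it over 1046 bases. The bifunctional enzymes *Pfkfb2* and *Pfkfb3*, which set the level of an activator of phosphofructokinase, and the isomerase *Tpi1* were not called in either comparison. *Pfkfb3* varied widely within the homeostatic groups, with 79.4, 182, 52.8 and 50.3 in *Bmi1*-CPC, 44.4, 87.0, 29.6 and 33.0 in the reference cells, and 65.0, 65.5, 57.9 and 82.6 after AMI. Replicate 2 was the highest in both homeostatic groups, and each *Bmi1*-CPC library exceeded the *Sca-1*-YFP- library of the same number. Its resting difference of 0.82 ± 0.39 was not called without the block (adjusted p = 0.131) and was called with it (adjusted p = 7.92e-05).

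Of 6 lower glycolysis members, 2 rose after AMI, 1 fell and 3 were not called. *Pgk1*, phosphoglycerate kinase, the earlier of the ATP-forming steps, had 33.6, 44.7, 39.6 and 41.7 in *Bmi1*-CPC, 36.3, 29.1, 31.9 and 32.7 in the reference cells, and 65.5, 73.0, 63.4 and 50.2 after AMI. Every AMI library exceeded every homeostatic one, and *Pgk1* rose (0.64 ± 0.13, adjusted p = 0.00198), with no call at rest (0.28 ± 0.13, adjusted p = 0.110). *Pgam1*, phosphoglycerate mutase, had 50.7, 41.1, 41.5 and 47.0 in *Bmi1*-CPC, 55.7, 52.9, 68.6 and 60.6 in the reference cells, and 95.5, 112, 93.8 and 82.2 after AMI. The groups did not overlap. *Pgam1* rose after AMI (1.07 ± 0.11, adjusted p = 3.05e-05), or 2.10-fold, and was lower in *Bmi1*-CPC than in the reference cells (−0.39 ± 0.12, adjusted p = 0.0260). The resting call was lost on leaving out any of 4 libraries, replicates 2 and 3 of *Bmi1*-CPC and replicates 3 and 4 of the reference cells (adjusted p = 0.0612 to 0.0910). Processed pseudogenes match both genes at full identity, *Pgk1-rs7* over 1255 of 1825 bases and *Pgam1-ps2* over 765 of 1775. Reads that lie within these stretches cannot be told apart.

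*Eno3*, the enolase of muscle, had 16.1, 27.6, 20.3 and 12.9 in *Bmi1*-CPC, 5.42, 8.80, 2.44 and 6.76 in the reference cells, and 4.30, 3.29, 4.21 and 4.04 after AMI. The *Bmi1*-CPC libraries were above all others. *Eno3* was higher at rest (1.61 ± 0.31, adjusted p = 0.00139) and fell after AMI (−1.98 ± 0.21, adjusted p = 3.37e-05), or 3.95-fold. Summed cardiomyocyte markers were likewise highest in *Bmi1*-CPC (553 to 861) and lower in *Sca-1*-YFP- cells (55.4 to 138) and after AMI (216 to 306). The *Bmi1*-CPC library with the most *Eno3*, replicate 2, had the lowest sum of its group. The part of these markers in the *Eno3* values was not tested. The ubiquitous enolase *Eno1*, *Gapdh* and *Pkm2*, the dehydrogenase and the pyruvate kinase of the pathway, were called in neither comparison. Over all 12 libraries *Eno1* ranged from 78.1 to 117, *Gapdh* from 49.1 to 66.4 and *Pkm2* from 84.9 to 134. *Gapdh* sequence matches 82 other annotated genes, and *Eno1* matches *Eno1b* over 1736 bases at 99.5%.

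For lactate, the subunit genes diverged. *Ldha*, the subunit of lactate dehydrogenase common in glycolytic tissue, had 253, 204, 215 and 211 in *Bmi1*-CPC, 136, 185, 173 and 134 in the reference cells, and 198, 250, 255 and 223 after AMI. *Bmi1*-CPC and AMI libraries overlapped, and both lay above *Sca-1*-YFP- cells. *Ldha* was higher in *Bmi1*-CPC at rest (0.50 ± 0.13, adjusted p = 0.00975), was not called there with library totals (0.24, adjusted p = 0.203) and was not called after AMI (0.07 ± 0.11, adjusted p = 0.651). *Ldhb*, the subunit common in heart muscle, had 23.8, 21.0, 24.2 and 18.6 in *Bmi1*-CPC, 12.2, 15.7, 10.8 and 13.1 in the reference cells, and 8.97, 7.35, 7.96 and 10.6 after AMI. The 3 groups did not overlap, and *Ldhb* was higher at rest (0.72 ± 0.16, adjusted p = 0.00321) and fell after AMI (−1.24 ± 0.15, adjusted p = 6.91e-05).

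*Slc16a1*, a transporter that carries lactate across the plasma membrane, had 6.95, 7.997, 6.94 and 7.57 in *Bmi1*-CPC, 6.16, 11.03, 7.32 and 5.66 in the reference cells, and 17.3, 15.9, 18.2 and 16.8 after AMI. All AMI libraries were above all others. It rose (1.11 ± 0.13, adjusted p = 6.06e-05), or 2.16-fold, with no call at rest (0.0075 ± 0.21, adjusted p = 0.983). *Slc16a3*, the transporter of highly glycolytic cells, was called higher after AMI at low values (3.95 to 6.71 against 2.28 to 3.73, adjusted p = 0.0328). That call was lost with the block (adjusted p = 0.0521) and on leaving out any of 5 of the 8 libraries, replicates 1, 3 and 4 at rest and replicates 1 and 2 after AMI (adjusted p up to 0.113).

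The genes at the mitochondrial gate of pyruvate were mixed. *Pdk1*, a kinase that inhibits pyruvate dehydrogenase, had 13.5, 30.6, 18.2 and 15.7 in *Bmi1*-CPC, 7.95, 13.9, 8.71 and 12.003 in the reference cells, and 18.5, 19.95, 16.8 and 20.8 after AMI. The homeostatic groups overlapped through replicate 2 of *Sca-1*-YFP- cells. *Pdk1* was higher in *Bmi1*-CPC (0.78 ± 0.25, adjusted p = 0.0274), a call lost on leaving out replicate 2 or 3 of *Bmi1*-CPC, or replicate 1 or 3 of the reference cells (adjusted p = 0.0533 to 0.0795) and with library totals (adjusted p = 0.0544). *Pdha1*, the alpha subunit of pyruvate dehydrogenase, had 45.4, 61.7, 58.8 and 57.8 in *Bmi1*-CPC, 76.4, 77.4, 63.5 and 61.9 in the reference cells, and 80.1, 73.2, 81.5 and 65.9 after AMI. The AMI libraries lay above the *Bmi1*-CPC libraries and among those of *Sca-1*-YFP- cells. It rose after AMI (0.42 ± 0.12, adjusted p = 0.0113), whereas *Pdhb*, the beta subunit, was called lower (37.5 to 42.5 against 43.25 to 55.5, adjusted p = 0.0482). The *Pdhb* call was lost with the block (adjusted p = 0.0690), with library totals (adjusted p = 0.401) and on leaving out any library but replicate 3 of resting *Bmi1*-CPC (adjusted p up to 0.109).

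**Figure D3:**
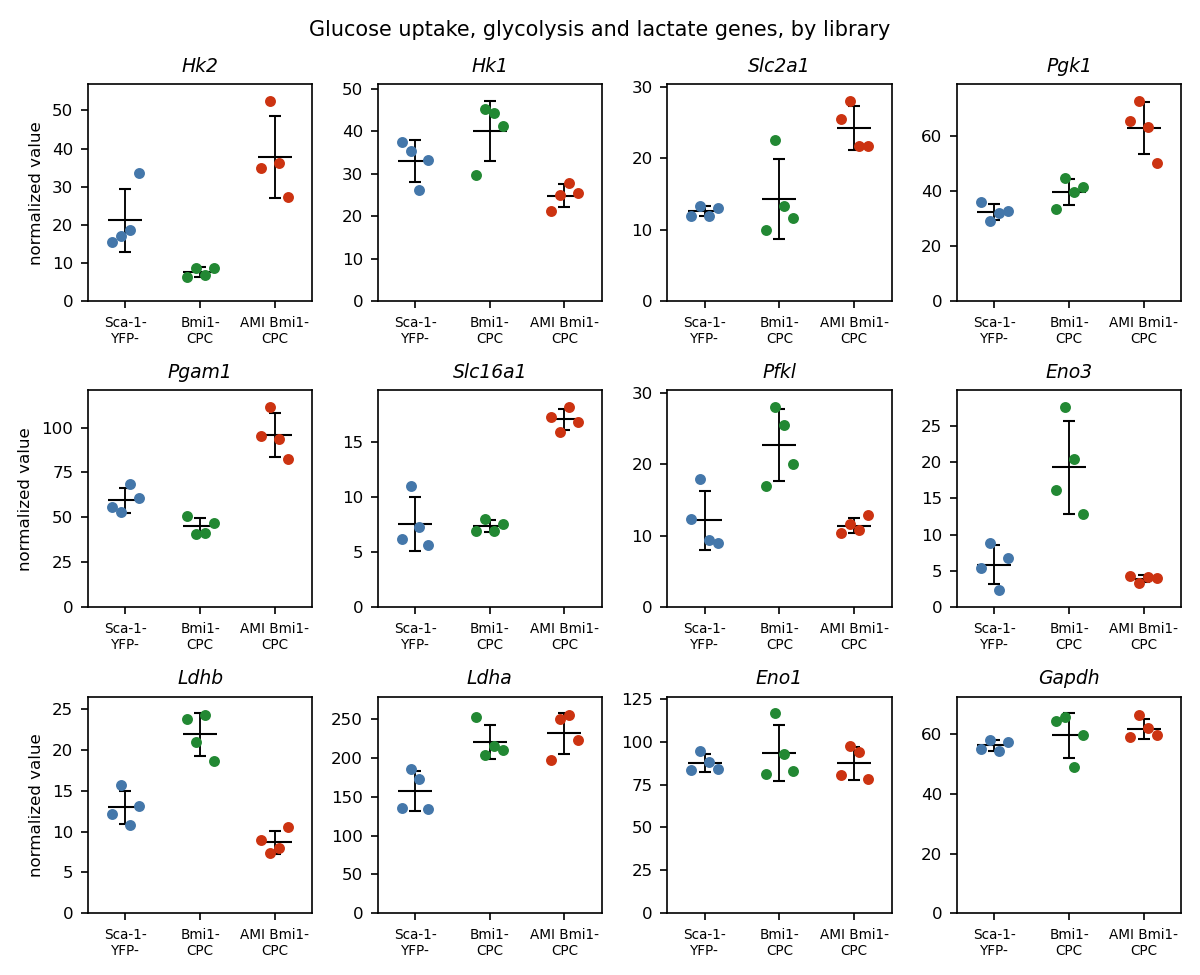
Normalized values (vertical axes, linear from 0) of 12 genes of glucose uptake, glycolysis and lactate metabolism in each library of the 3 groups (points), with the mean and SD of 4 libraries (bars). *Hk2*, *Slc2a1*, *Pgk1*, *Pgam1* and *Slc16a1* are raised after AMI, *Hk1*, *Pfkl*, *Eno3* and *Ldhb* are lowered, and *Eno1* and *Gapdh* overlap in all groups.

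Of 7 genes counted as induced by hypoxia, 3 were higher in resting *Bmi1*-CPC, and after AMI 1 rose and 1 fell. *Ndrg1*, a stress-responsive gene, had 133, 165, 147 and 126 in *Bmi1*-CPC, 55.6, 93.3, 67.5 and 59.5 in the reference cells, and 114, 103, 116 and 136 after AMI. All *Bmi1*-CPC libraries exceeded all *Sca-1*-YFP- libraries and overlapped those after AMI. *Ndrg1* was higher at rest (1.06 ± 0.16, adjusted p = 2.02e-04) and not called after AMI (−0.28 ± 0.11, adjusted p = 0.0588). *Bnip3*, a receptor for the removal of mitochondria, had 34.2, 32.1, 20.8 and 22.9 in *Bmi1*-CPC, 14.9, 25.7, 12.7 and 12.8 in the reference cells, and 25.5, 28.2, 26.3 and 28.3 after AMI. The resting groups overlapped through *Sca-1*-YFP- replicate 2. Its resting call (0.73 ± 0.23, adjusted p = 0.0267) was lost with library totals (adjusted p = 0.0873) and on leaving out replicate 1 or 2 of *Bmi1*-CPC, or any reference replicate but the second (adjusted p = 0.0595 to 0.0824). *Ankrd37*, an ankyrin repeat gene, had 3.99, 6.08, 6.70 and 8.77 in *Bmi1*-CPC, 2.90, 5.01, 1.74 and 2.62 in the reference cells, and 5.35, 5.81, 7.44 and 9.44 after AMI. Its 13 to 36 reads per *Bmi1*-CPC library and 7 to 27 per *Sca-1*-YFP- library carry wide counting error. The resting call (0.88 ± 0.28, adjusted p = 0.0272) was lost with library totals (adjusted p = 0.0694) and on leaving out any *Bmi1*-CPC replicate but the first, or any reference replicate but the second (adjusted p = 0.0531 to 0.0900).

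*Ero1l*, an oxidase of the endoplasmic reticulum, had 46.3, 44.2, 57.1 and 54.9 in *Bmi1*-CPC, 38.6, 40.5, 44.0 and 37.9 in the reference cells, and 65.2, 71.5, 64.9 and 69.7 after AMI. The groups did not overlap, with AMI libraries highest. It rose after AMI (0.42 ± 0.11, adjusted p = 0.00685), and its resting difference (0.32 ± 0.12, adjusted p = 0.0614) was called with the block (adjusted p = 0.0498). *Adm*, the precursor of the vasodilator adrenomedullin, had 12.3, 18.2, 8.41 and 9.49 in *Bmi1*-CPC, 13.5, 13.9, 13.8 and 22.8 in the reference cells, and 5.80, 7.35, 4.60 and 8.02 after AMI. The AMI libraries were the lowest, and *Adm* fell (−0.78 ± 0.24, adjusted p = 0.0188), a call lost without AMI replicate 3 (adjusted p = 0.0595). *Bnip3l* and *Higd1a* were called in neither comparison and ranged over all libraries from 99.5 to 165 and from 4.69 to 14.2.

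Ratios of related members within a library do not depend on how libraries were scaled, and only their shifts between groups are read here, as a description with no test. *Hk2* over *Hk1* was 0.157 to 0.214 in *Bmi1*-CPC, 0.411 to 1.01 in *Sca-1*-YFP- cells and 1.07 to 2.09 after AMI, with no overlap of the groups. *Hif1a* over *Epas1* was 0.0487 to 0.0652, 0.0957 to 0.139 and 0.298 to 0.515, again without overlap. *Ldha* over *Ldhb* was 8.87 to 11.3, 10.2 to 16.03 and 21.1 to 34.1, so that the resting groups overlapped and the AMI libraries stood apart. The same was seen for *Pfkp* over *Pfkm* (2.59 to 7.03, 2.505 to 5.96 and 10.5 to 13.96) and *Slc2a1* over *Slc2a3* (0.705 to 1.26, 0.754 to 1.31 and 1.57 to 2.93). *Eno1* over *Eno3* was 4.24 to 6.46 in *Bmi1*-CPC, 10.7 to 36.2 in *Sca-1*-YFP- cells and 18.7 to 29.6 after AMI, so that homeostatic *Bmi1*-CPC stood apart here. The ratios of *Slc16a1* to *Slc16a3*, *Egln1* to *Egln2* and *Bnip3* to *Bnip3l* overlapped between homeostatic and AMI *Bmi1*-CPC.

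**Figure D4:**
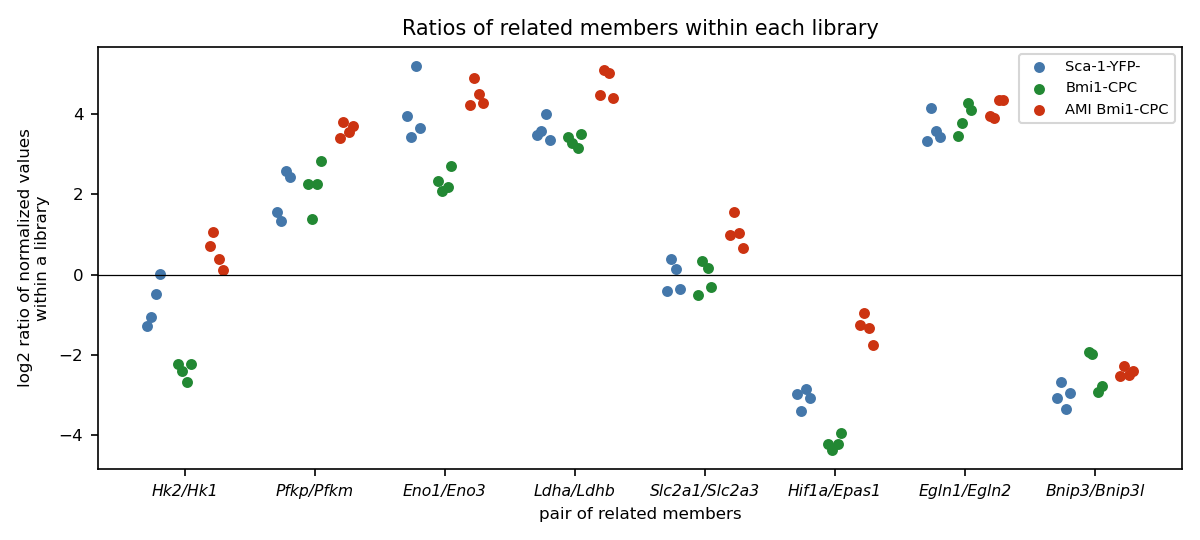
Log2 ratio of the normalized values of 8 pairs of related members in each of the 12 libraries, by group. Points above 0 have the larger value for the gene named first, without regard to transcript length. The AMI libraries lie above the homeostatic *Bmi1*-CPC libraries without overlap for *Hk2*/*Hk1* (1.07 to 2.09 against 0.157 to 0.214 on the linear scale), *Pfkp*/*Pfkm*, *Eno1*/*Eno3*, *Ldha*/*Ldhb*, *Slc2a1*/*Slc2a3* and *Hif1a*/*Epas1*, and overlap for the other pairs.

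Replicate 2 was the highest of the 4 libraries for 20 of 39 members in *Bmi1*-CPC, for 23 of 39 in the reference cells and for 15 in both. Over all genes of the tables these shares were 26.0%, 31.3% and 9.95%, against 51.3%, 59.0% and 38.5% of members, which is a description with no test. The 15 included *Slc2a1*, *Pfkl*, *Pfkfb3*, *Eno3*, *Pdk1*, *Epas1* and *Ndrg1*. Pools of the same number deviated together over all genes in homeostasis, and with the number as a block 14 members were higher and 3 lower in *Bmi1*-CPC (43.6% of members, 37.5% of all genes). The block added *Gpi1* (adjusted p = 0.0438), *Pfkfb3*, *Hif1a* and *Ero1l* and lost no call. Without replicate 2 of both groups, 12 were higher and 3 lower.

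Of 24 other glycolysis and pyruvate genes, 2 were higher and 4 lower in *Bmi1*-CPC at rest, and 6 rose and 3 fell after AMI. For this list and those that follow, 16.8% of all genes tested were higher and 17.6% lower at rest. After AMI these shares were 21.4% and 22.0%. *Slc2a10*, a glucose transporter family gene, had 3.85 ± 0.481 (SD) in *Bmi1*-CPC, 14.4 ± 1.70 in *Sca-1*-YFP- cells and 9.34 ± 1.27 after AMI (−1.67, adjusted p = 1.70e-05, and 1.09, adjusted p = 3.29e-04). The neuronal enolase gene *Eno2* was lower (−1.40, adjusted p = 4.67e-04) and the phosphoglucomutase *Pgm1* higher (0.70, adjusted p = 7.48e-04) in resting *Bmi1*-CPC. The pyruvate dehydrogenase kinases parted after AMI, with *Pdk2* lower (−0.81, adjusted p = 0.00137) and *Pdk3* higher (0.96, adjusted p = 0.00255).

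Of 8 pentose phosphate genes, which make NADPH and ribose from glucose phosphate, 3 were lower in *Bmi1*-CPC at rest and none was higher. They were the oxidative branch genes *H6pd* (52.9 ± 11.1 against 161 ± 26.8, log2 fold change −1.60, adjusted p = 1.78e-05), *G6pdx* (33.2 ± 4.18 against 64.5 ± 6.05, −0.94, adjusted p = 9.19e-05) and *Pgd* (24.3 ± 5.76 against 35.9 ± 3.18, −0.57, adjusted p = 0.0176). The call of *Pgd* was lost without *Sca-1*-YFP- replicate 4 (adjusted p = 0.0560). After AMI only *Rpe*, the ribulose phosphate epimerase, was called among the 8 (0.49, adjusted p = 0.00403).

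Of 41 other genes of the HIF pathway or induced by hypoxia, 5 were higher and 11 lower in resting *Bmi1*-CPC, and 13 rose and 7 fell after AMI. Over all genes tested, 34.4% were called in either direction at rest and 43.4% after AMI. *Vldlr*, a lipoprotein receptor (−1.54, adjusted p = 3.06e-05), and the collagen lysyl hydroxylase *Plod2* (−0.77, adjusted p = 2.70e-04) were lower at rest. After AMI the hypoxia-inducible lipid droplet gene *Hilpda*, listed as *2310016C08Rik*, rose from 2.18 ± 0.377 to 14.2 ± 1.98 (2.25, adjusted p = 4.19e-06). *Anln*, which encodes a protein of the cleavage furrow (1.74, adjusted p = 4.81e-05), and *Plod2* (1.53, adjusted p = 5.72e-05) also rose. All 6 cycling cell markers rose as well. Of the 7 fibroblast markers, *Col1a1*, *Col1a2*, *Lum* and *Postn* rose, *Tcf21* fell, and *Pdgfra* and *Dcn* were not called. Their part was not tested.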

How the data were processed

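RNA of sorted cells was amplified to cDNA without strand and sequenced. Per the labels, the authors trimmed reads with cutadapt, quantified them with RSEM and normalized them with edgeR (versions not given in the sources used here) on build NCBIM37. The deposited signal of 12528 genes in 12 libraries equalled (reads + 0.5) × a library factor, with whole reads recovered for 100% of values (tolerance 1e-06). The 4 *Bmi1*-CPC columns that both tables hold were identical (largest difference 0). No reads in a library leaves room for 3, worth 0.316 to 0.888, for counting error only. The tables also hold the authors' fold changes and adjusted p-values, which were not used.

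Each comparison took genes above a value of 1 in 4 or more of its 8 libraries and tested them with limma 3.58.1 (R 4.3.3, variance trend, pseudocount 1). edgeR 4.0.16 and DESeq2 1.42.0 on the recovered reads were alternatives, and edgeR with TMM called 2056 genes higher and 2216 lower in homeostasis and 2759 and 2705 after AMI. Other alternatives were other pseudocounts, no filter, edgeR with library totals, all libraries in 1 fit, a replicate block and leaving out each library. No replicate pair agreed within sampling noise (chi-square divided by its degrees of freedom 7.45 to 61.8). The libraries of a group are pools of mice, and p-values measure the spread between these libraries. Deviations from group means correlated between the same replicate numbers at 0.26, 0.25, 0.16 and 0.30 in homeostasis. The heat map legends of the study speak of matched samples, but no source used here states which pools are paired. The main fit held no block, so its resting p-values ignore any such pairing, and the replicate block was run as an alternative.

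Values in every library, fold changes and p are given for *Hif1a*, *Epas1* and *Arnt*, for up to 3 called members with the smallest adjusted p per role and comparison, and for members called in both. *Pfkfb3* was chosen after its values were seen, and other members are given by range. From the 3 further lists, up to 3 called genes per comparison were named by the same order, of which 1 is not reported here. The members, lists and rules were chosen with earlier results of these data known. In simulated data limma recovered 76 of 100 genes changed by 1 log2 unit in the homeostatic layout (12471 genes) and 85 of 100 in the AMI layout (12493 genes). Larger changes were planted too, and of 190 genes called in each layout, 14 and 6 were unchanged. The changes were planted only in genes above a low mean value, and libraries were drawn independently. Recovery for the lowest members or for paired pools was thus not measured. Near copies were sought with blastn 2.17.0 among GENCODE M21 transcripts (at least 95% identity over 75 bases), and 21 of 39 members matched another gene. Lengths per kilobase are those of the longest coding M21 transcript. Promoters are those of RefSeq.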

Additional observations from a re-analysis of the deposited data

Results flagged for a closer look

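The 4 libraries of each group were examined for 1 library far from the other 3, for 117 sets of member values, and 5 stood apart, where chance alone gives about 1 in 20. *Tpi1* was lowest in *Sca-1*-YFP- replicate 4 (14.21, the others 20.56 to 21.73). *Epas1* was highest in *Sca-1*-YFP- replicate 2 (904.7, the others 525.6 to 535.2). *Egln3* was highest in *Bmi1*-CPC replicate 3 (9.381, the others 5.864 to 6.361). *Higd1a* was highest in AMI *Bmi1*-CPC replicate 3 (10.16, the others 8.05 to 8.3). *Adm* was highest in *Sca-1*-YFP- replicate 4 (22.76, the others 13.54 to 13.93).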

How the results depend on the processing

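No called value of a named gene changed direction under the alternatives run. With edgeR on library totals, the homeostatic counts moved to 6 members higher and 5 lower. The median over all genes moved there to −0.25, and 28.2% of calls were higher in place of 48.8%. After AMI the counts moved to 9 higher and 9 lower, with 60.8% of calls higher in place of 49.3%. With all 12 libraries in 1 fit, 13 members were higher and 5 lower at rest. Leaving out each library gave 7 to 12 members higher and 2 to 3 lower in homeostasis, 8 to 9 higher and 11 to 13 lower after AMI, and 3629 to 4345 and 4456 to 5614 genes called in all, against 4286 and 5421. The naming rule picked 23 genes in homeostasis and 25 after AMI, and each pair of gene and alternative was counted. In homeostasis 26 pairs lost their call, 8 gained one, all for *Hif1a*, and 357 kept theirs. After AMI 3 pairs lost their call and 397 kept theirs. The resting losses were all in *Arnt*, *Pgam1*, *Ldha*, *Pdk1*, *Bnip3*, *Ankrd37* and *Pgd*. Members that the rule did not pick in a given comparison also changed side there. *Gpi1*, *Slc16a3* and *Pdhb* lost AMI calls, and *Ndrg1*, *Pkm2* and *Pfkp* gained one in at least 1 alternative. At rest *Gpi1*, *Pfkfb3*, *Ero1l*, *Egln2*, *Pgk1*, *Pdha1* and *Pfkfb2* gained one. Without replicate 2 of both homeostatic groups, an alternative chosen after seeing the data, *Hif1a* was called at rest (adjusted p = 0.0219).

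After AMI the same replicate numbers correlated at 0.08, −0.01, −0.0089 and 0.0017, so they share a number only, and the replicate block gave 8 members higher and 13 lower. With a pseudocount of 1 in both values, the mean log2 ratio after AMI was 3.37 for *Pfkp* over *Pfkm*, −2.34 for *Pfkl* over *Pfkp* and 4.15 for *Eno1* over *Eno3*, against 3.61, −2.43 and 4.47 without it. The causes of the shifts were not tested. At 7 to 50 reads per library, as for *Ankrd37*, *Slc16a3* or *Vhl*, counting error limits what can be seen.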
